A study of Mus musculus with 9 samples.

Results

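The genes described are those of the cytosolic ribosomal proteins, taken from a count table of sorted mouse liver endothelial cells by their symbols. A row was a member when its symbol was Rpl or Rps followed by a number, with an optional a, l, x or y, or was Rplp0, Rplp1, Rplp2 or Rpsa. Symbols ending in -ps and the Rps6k kinases were left out. The rule found 83 of 52636 rows, of which 32 were named for the small subunit and 51 for the large subunit. By the annotation, 80 of the 83 were protein-coding, and Rpl32l, Rpl6l and Rps4l were pseudogenes.

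Polyadenylated RNA was sequenced from liver endothelial cells that were alive, lacked the blood cell protein CD45, carried the endothelial protein CD31 and had bound a VE-cadherin antibody given to the living mouse. There were 4 control libraries, labelled wild type, and 5 libraries labelled Erg and Fli1 double knockout, all from day 7 after tamoxifen. The labels give tamoxifen for every sample, and the sources used here name no Cre driver, strain or age of the animals. Erg and Fli1 encode transcription factors of the ETS family, and the design sets the knockout-labelled libraries against the controls in 1 comparison.

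Each cytosolic ribosome holds one copy of nearly every ribosomal protein, and their messenger RNAs are abundant, stable and short in most cells. Many of these messages begin with a run of pyrimidines, the TOP motif, through which the kinase mTOR and the RNA-binding protein Larp1 control their translation and stability. Their promoters often hold short elements bound by general factors, among them ETS factors, whose recognition sequence has GGAA at its core.

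The libraries held between 26791371 and 36401682 counts. Levels are given as CPM, counts scaled to 1000000 per library on library sizes adjusted by the TMM method, and 1 count was worth between 0.0260 and 0.0368 CPM. Of the targeted genes, Erg ranged from 296.9 to 337.1 CPM in controls and from 131.1 to 159.0 CPM in knockout-labelled libraries, while Fli1 ranged from 90.4 to 108.8 and from 123.3 to 172.1 CPM. Fli1 counts over the whole gene thus went against the label, so the samples are called libraries labelled knockout. The defining endothelial genes Cdh5 and Pecam1 were among the 10 endothelial markers, all of which were detected.

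Ribosomal protein genes did not shift one way in the libraries labelled knockout. Their summed level was above every control in replicates 1, 2 and 3 and below every control in replicates 4 and 5. In RNA from many cells, fewer cells of a type and less RNA per cell cannot be told apart. Their summed share of the library counts was 1.13%, 1.20%, 1.11% and 1.09% in control replicates 1 to 4. It was 1.39%, 1.49%, 1.67%, 1.07% and 0.994% in the knockout-labelled replicates 1 to 5. The group means were 1.13% ± 0.0469 (SD, n = 4) and 1.32% ± 0.287 (SD, n = 5), so the ranges overlapped and the spread was wider in the libraries labelled knockout. The counting interval of each share (Wilson, 95%) was at most 0.00867 percentage points wide. The ratio of the summed CPM of large to small subunit genes lay between 1.393 and 1.442 in controls. It was 1.449, 1.487, 1.386, 1.471 and 1.496 in knockout-labelled replicates 1 to 5. Replicates 1, 2, 4 and 5 were thus above every control and replicate 3 was below every control.

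**Figure D1:**
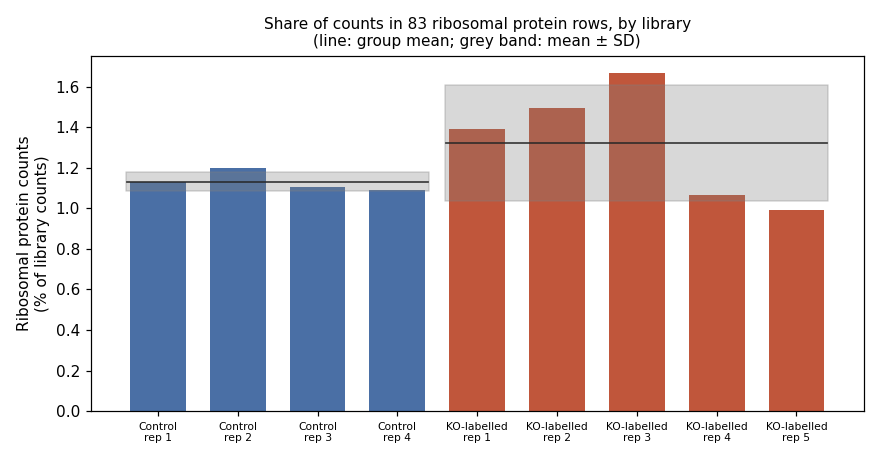
Share of library counts in the 83 ribosomal protein rows, in percent, by library; bars are libraries, lines are group means and grey bands are mean ± SD. Knockout-labelled replicates 1, 2 and 3 lie above the highest control (1.20%), and replicates 4 and 5 lie below the lowest (1.09%).

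Of the 83 members, 78 had enough counts to be tested. Rpl10a was called higher in the libraries labelled knockout by edgeR's quasi-likelihood test (Benjamini-Hochberg adjusted p under 0.05 over all 14583 genes tested), and 0 members were called lower. That is 1.28% of the 78, against 29.3% of all genes tested. At an unadjusted p under 0.05, 9 of 78 members were higher, against 20.3% of all genes tested, and 1 (1.28%) was lower, against 20.4%. DESeq2 called 5 higher (Rpl10a, Rpl18, Rps6, Rps26 and Rpsa) and 0 lower, 6.41% of the members against 34.5% of all genes tested, and limma-voom called Rpl10a and 0 lower. The log2 fold change was positive for 66 members and negative for 12, with a median of 0.15, against 0.01 over all genes tested. It ran from -0.41 for Rps21 to 0.52 for Rpl10a. The median was 0.14 for the 32 small subunit genes, with 0 called, and 0.16 for the 46 tested large subunit genes. Without the knockout-labelled replicates 2 and 3 together, the median turned to -0.01 and 5 members were called, all lower. In that setting 2108 of 14580 genes tested were called higher and 2167 lower. The libraries left out there had the highest member shares (1.49% and 1.67%), so a lower median was fixed by the choice. Leaving out replicates 4 and 5 together was not tried.

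**Figure D2:**
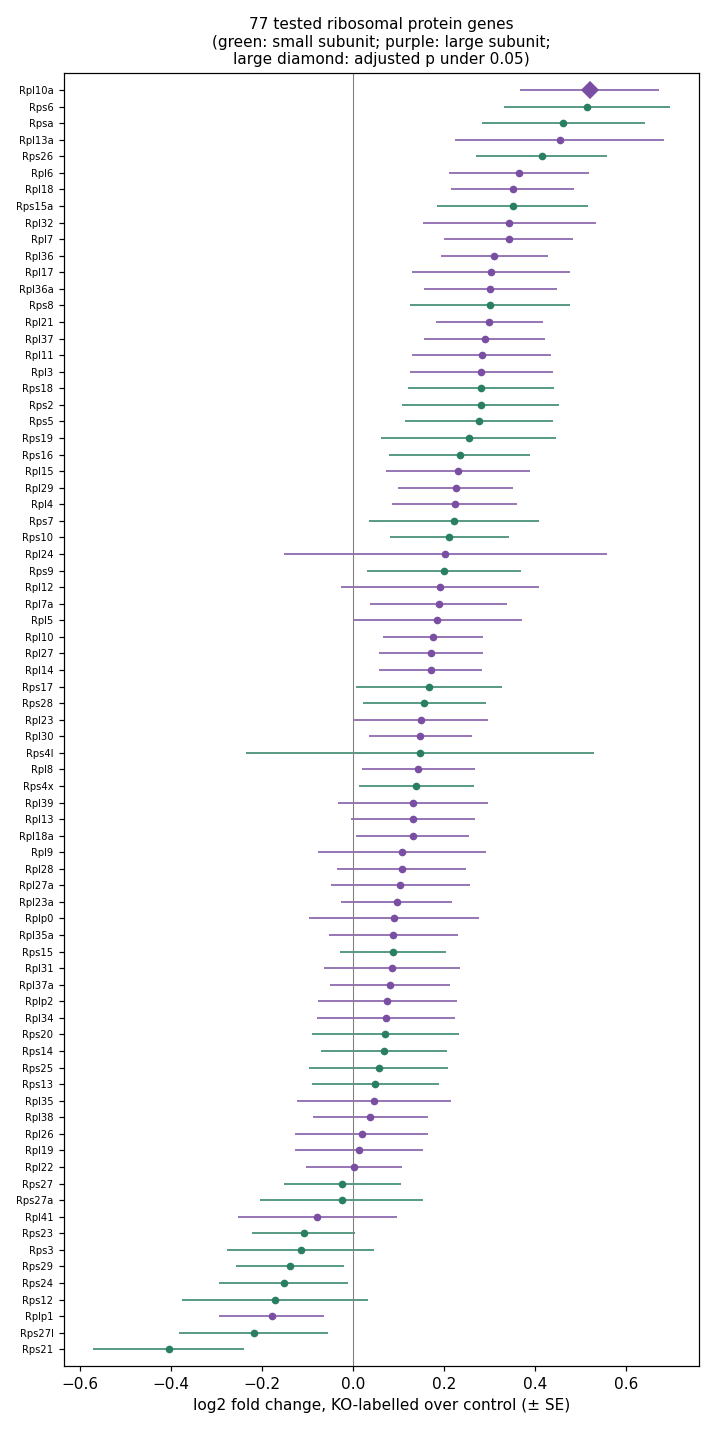
The log2 fold change (horizontal axis, knockout-labelled over control, ± SE) of 77 of the 78 tested ribosomal protein genes, ordered by value; green marks the small subunit, purple the large subunit, and the diamond Rpl10a, with an adjusted p under 0.05. Estimates run from -0.41 (Rps21) to 0.52 (Rpl10a).

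In 0 of the 78 tested members were all libraries labelled knockout above all controls, against 13.2% of all genes tested, and in 0 were they all below, against 13.8%. The overlap came with a wide spread among the libraries labelled knockout. On the log2 scale the median SD of a member was 0.09 among controls and 0.32 among libraries labelled knockout, against 0.16 and 0.23 over all genes tested. The SD was larger in the libraries labelled knockout for 78 of 78 members and for 9984 of all 14583 genes.

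The members kept together from library to library. In the knockout-labelled replicates 1, 2 and 3, respectively 56, 66 and 73 of the 78 members were above every control. In replicates 4 and 5, 49 and 62 members were below every control. Over all genes tested, the share above every control in a single library labelled knockout was between 31.7% and 35.0%, and the share below between 31.6% and 34.9%. Replicate 3 was the highest of all 9 libraries for 52 members, and replicate 5 the lowest for 55. The median difference of the members from the control mean, on the log2(CPM + 0.5) scale, was 0.24, 0.35, 0.45, -0.15 and -0.20 in knockout-labelled replicates 1 to 5.

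**Figure D3:**
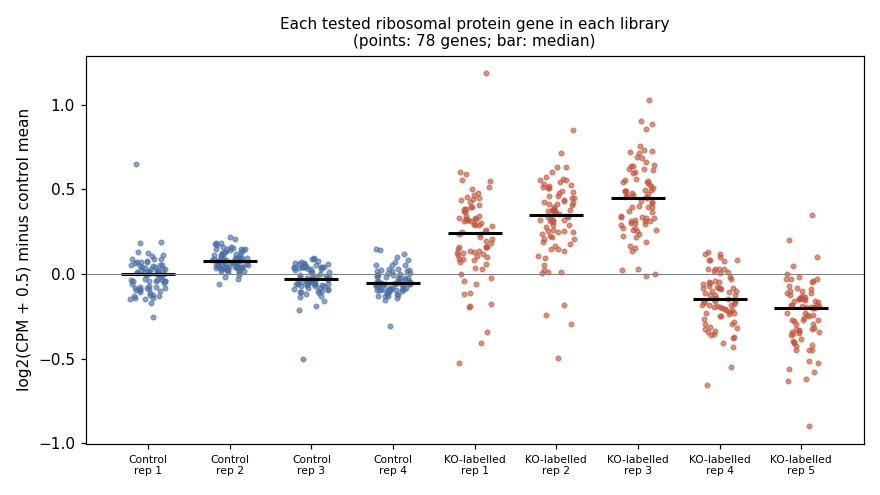
Each of the 78 tested ribosomal protein genes in each library, as log2(CPM + 0.5) minus the gene's control mean; points are genes and bars are medians. The medians of the libraries labelled knockout are 0.24, 0.35, 0.45, -0.15 and -0.20, on both sides of the controls.

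Other measures of the libraries differed as well, and their part in this pattern was not tested. The knockout-labelled replicates 1 to 5 held 28084745, 32089043, 36401682, 26791371 and 29721296 counts. The summed level of the 10 endothelial markers was 21310, 15360, 14880, 21690 and 22660 CPM in the same order, against 23960 to 26500 CPM in controls, with 3 of 10 called lower. The 9 erythroid and platelet markers summed to 138.8, 178.1, 154.8, 79.2 and 96.1 CPM, against 38.5 to 57.8 CPM in controls, and 4 of 8 tested were called higher. The 6 granulocyte markers summed to between 7.04 and 21.2 CPM, against 0.409 to 4.24 CPM in controls, with 3 of 3 tested called higher and Ly6g, Mpo and Elane at 0 in the controls. The 12 hepatocyte markers summed to between 22.2 and 220.1 CPM, against 166.9 to 387.7 CPM, with 2 of 12 called lower. All 12 had negative estimates, and 6 were lower at an unadjusted edgeR p under 0.05, against 20.4% of all genes tested. Past the adjusted threshold, 14.5% of all genes tested were called higher and 14.8% lower. Among 10 macrophage, 7 tested stellate cell, 4 tested lymphocyte and 3 tested cholangiocyte markers, edgeR called 0, and 1 stellate cell marker was lower at an unadjusted p under 0.05. The 12 genes induced by tissue handling had 0 calls in edgeR, 1 lower at an unadjusted p under 0.05, and summed to between 3506 and 18750 CPM in libraries labelled knockout and between 7731 and 17780 CPM in controls. By Xist and Ddx3y counts, controls 1, 2 and 4 and knockout-labelled replicates 1 and 2 were male and the other libraries female.

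The sequences upstream of members at both ends of the fold change order are shown because the targeted factors bind GGAA-centred sites. RefSeq promoters on GRCm38.p6, each 300 bases long from 250 before to 50 after the start, matched 61 of the 83 members. The windows below are the 120 bases from 100 before to 20 after the start, written 5′ to 3′ along the gene, and capitals mark CCGGAA or its reverse complement TTCCGG. The first 3 are of the tested members with the highest log2 fold change among those matched, and the last 3 of those with the lowest. They lie at chr17:28328371-28328490 (plus strand), chr4:86857348-86857467 (minus), chr9:120127666-120127785 (plus), chr2:180257279-180257398 (plus), chr9:66945986-66946105 (plus) and chr10:23787190-23787309 (minus).
Rpl10a: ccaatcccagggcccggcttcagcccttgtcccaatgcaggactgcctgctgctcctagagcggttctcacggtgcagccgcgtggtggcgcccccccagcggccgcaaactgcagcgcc
Rps6: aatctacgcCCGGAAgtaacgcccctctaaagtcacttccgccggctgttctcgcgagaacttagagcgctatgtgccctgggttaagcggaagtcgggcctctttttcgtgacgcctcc
Rpsa: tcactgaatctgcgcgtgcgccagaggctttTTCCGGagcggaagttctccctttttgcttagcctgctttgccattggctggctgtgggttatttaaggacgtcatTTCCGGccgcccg
Rps21: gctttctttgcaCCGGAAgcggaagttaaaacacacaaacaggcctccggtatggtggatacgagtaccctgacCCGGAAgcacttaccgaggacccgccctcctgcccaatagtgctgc
Rps27l: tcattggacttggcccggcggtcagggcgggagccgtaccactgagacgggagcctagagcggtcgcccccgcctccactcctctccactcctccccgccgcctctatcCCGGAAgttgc
Rps12: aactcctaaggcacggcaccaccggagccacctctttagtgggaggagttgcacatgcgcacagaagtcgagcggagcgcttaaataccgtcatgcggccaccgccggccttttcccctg

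The hexamer was in both groups of windows: Rps6, Rpsa, Rps21 and Rps27l hold it, and those of Rpl10a and Rps12 do not. Counting both strands, CCGGAA was in 50.9% of the 57 tested members' promoters, against 28.3% of the promoters of 10443 genes tested and 17.9% of all 20298 promoters of this length. The longer CCGGAAG, which contains it, was in 40.4%, against 18.3% and 11.1%. A C followed by at least 4 pyrimidines, beginning within 5 bases of the RefSeq start, was in 47.4%, against 20.3% and 18.8%. That start lay 45, 77 and 66 bases from the annotated 5′ end of Rps6, Rpsa and Rps12. For Rpl10a, Rps27l and Rps21 it lay 0, 0 and 2 bases away. A run at another start is missed, so this share depends on the start used. The median log2 fold change was 0.17 for the 29 tested members with CCGGAA and 0.15 for the 28 without it. It was 0.13 with CCGGAAG against 0.15 without, and 0.13 with the pyrimidine run against 0.15 without. These differences were not tested. A match is a description of letters in the window, and binding was not measured.

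Rpl10a, a large subunit protein of the L1 stalk beside the exit site for transfer RNA, was the member called higher. Its gene (ENSMUSG00000037805) lies at GRCm38 chromosome 17, 28328471 to 28331033, plus strand. It stood at 77.7, 81.6, 76.3 and 87.8 CPM in controls and at 121.6, 132.6, 146.3, 86.5 and 92.8 CPM in knockout-labelled replicates 1 to 5. Replicates 1, 2, 3 and 5 were above every control and replicate 4 was below control 4. The means were 80.9 ± 5.15 (SD, n = 4) and 116.0 ± 25.6 CPM (SD, n = 5). The log2 fold change was 0.52 ± 0.15 (SE) and the adjusted p in edgeR was 0.0289. The call was lost without control 1, 2 or 3 (edgeR adjusted p 0.0772, 0.0691 and 0.0780) and without knockout-labelled replicate 1 or 2 (0.0564 and 0.0537).

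Rps6, a small subunit protein phosphorylated by the S6 kinases downstream of mTOR, had a similar profile and missed the threshold. Its levels were 128.2, 132.4, 113.5 and 126.2 CPM in controls and 172.7, 225.6, 230.6, 135.5 and 129.2 CPM in the libraries labelled knockout. The log2 fold change was 0.51 ± 0.18 (SE), with an edgeR adjusted p of 0.0584. Only replicate 5 was within the range of the controls.

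Rpsa, the small subunit protein also known as the laminin receptor, stood at 214.8, 224.4, 202.0 and 202.0 CPM in controls. In libraries labelled knockout it was at 319.8, 309.2, 394.2, 222.7 and 206.4 CPM, with replicates 4 and 5 inside the control range. The log2 fold change was 0.46 ± 0.18 (SE; edgeR adjusted p 0.0798). Rps26, which contacts the message upstream of the start codon, read 128.0, 135.8, 140.4 and 123.7 CPM in controls and 187.1, 204.5, 212.2, 134.8 and 141.5 CPM in libraries labelled knockout. Its log2 fold change was 0.42 ± 0.14 (SE; edgeR adjusted p 0.0543). Over the 8 small subunit proteins that line the path of the message, Rpsa and Rps26 among them, edgeR called 0 in either direction, against 29.3% of all genes tested.

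Rps21, a small protein of the small subunit that lies next to Rpsa, had the most negative estimate. Its gene (ENSMUSG00000039001) lies at GRCm38 chromosome 2, 180257377 to 180258445, plus strand. The levels were 81.0, 95.2, 81.7 and 86.3 CPM in controls and 64.7, 72.4, 87.6, 54.3 and 45.8 CPM in libraries labelled knockout, where only replicate 3 was inside the control range. The log2 fold change was -0.41 ± 0.17 (SE; edgeR adjusted p 0.0964). Without replicate 3, the library inside the control range, it was -0.53, with an edgeR adjusted p of 0.0177, so that call rests on the library left out. In 18 of 20 alternatives Rps21 stayed uncalled. The exceptions were this setting and the one without replicates 2 and 3 together.

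**Figure D4:**
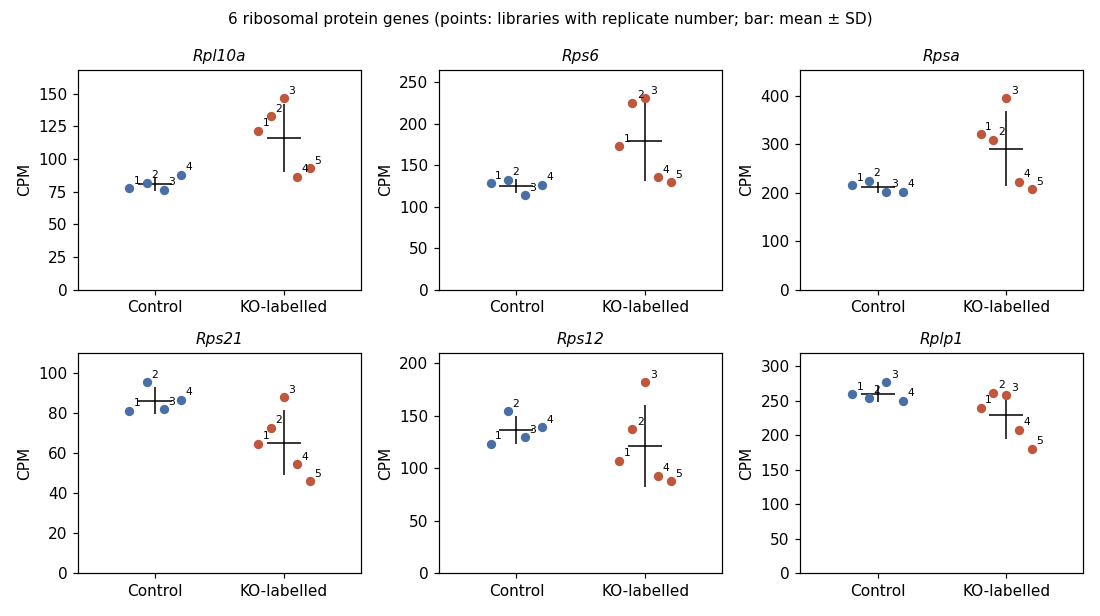
CPM of 6 ribosomal protein genes by library; points are libraries with their replicate number, and bars are mean ± SD. Rpl10a, Rps6 and Rpsa are highest in knockout-labelled replicates 1 to 3, while Rps21 is lowest in replicates 4 and 5, at 54.3 and 45.8 CPM.

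Negative estimates, that of Rps21 included, were seen for 10 of the 32 small subunit genes and 2 of the 46 tested large subunit genes. Rps12, a protein of the beak of the small subunit, read 123.4, 154.3, 129.4 and 139.0 CPM in controls and 107.2, 136.8, 181.8, 92.9 and 87.5 CPM in libraries labelled knockout, from below to above the control range. Rps24, whose human counterpart is mutated in Diamond-Blackfan anaemia, read 154.9 to 189.3 CPM in controls, 212.8 CPM in replicate 3 and 134.3 to 150.0 CPM in the other libraries labelled knockout. Rplp1, an acidic protein of the P stalk that recruits elongation factors, read 249.6 to 276.6 CPM in controls and 239.9, 261.6, 257.7, 208.1 and 179.9 CPM in replicates 1 to 5 labelled knockout. Its log2 fold change was -0.18 ± 0.12 (SE; edgeR adjusted p 0.275).

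Measured against the other members, the balance among ribosomal protein genes differed most for Rps21. In a second fit the summed counts of the members served as the library size, so that each member was read relative to the rest. Rps21 was called lower and 0 members were called higher, against 16.3% of all genes tested called in that fit. At an unadjusted p under 0.05 this fit had 1 member higher, Rpl10a, and 1 lower, against 10.1% and 18.2% of all genes tested. Rps21 made up 0.692%, 0.784%, 0.717% and 0.774% of the ribosomal protein counts in controls and 0.469%, 0.490%, 0.555%, 0.517% and 0.465% in libraries labelled knockout. The groups did not overlap, with means of 0.742% ± 0.0442 (SD, n = 4) and 0.499% ± 0.0376 (SD, n = 5). The relative log2 fold change was -0.57 ± 0.16 (SE), with an edgeR adjusted p of 0.0166. The call was lost without control 2, 3 or 4 (edgeR adjusted p 0.0716, 0.0523 and 0.0562).

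As a share of the ribosomal protein counts, 16 of the 78 tested members (20.5%) had groups that did not overlap, against 18.2% of all genes tested read on the same scale. Higher in all libraries labelled knockout were Rpl6, Rpl7, Rpl10a, Rpl18, Rpl36a, Rps6, Rps15a, Rps26 and Rpsa, 9 in all. Lower were 7, among them Rplp1, Rps3 and Rps21. Rpl7, which binds the large subunit RNA, took 2.53% to 2.72% of these counts in controls and 2.77% to 3.09% in libraries labelled knockout. Rps3, at the entry of the message channel, took 3.10% to 3.41% in controls and 2.60% to 2.90% in libraries labelled knockout. Rps6 took 0.997% to 1.13% and 1.25% to 1.53%, and Rpsa 1.77% to 1.85% and 2.09% to 2.50%. In the second fit none of Rpl7, Rps3, Rps6 and Rpsa was called (edgeR adjusted p 0.548, 0.328, 0.177 and 0.285). Across the 77 tested protein-coding members, the relative log2 fold change was set against the length of the longest principal transcript. The Pearson r was 0.30 with log2 length and the Spearman rho 0.28, over genes of the same 9 libraries.

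Groups of members with a shared place in the ribosome or a shared disease link had 0 calls in edgeR in either direction, against 29.3% of all genes tested. The P stalk (Rplp0, Rplp1, Rplp2 and Rpl12) summed to between 866.6 and 968.5 CPM in controls and between 667.5 and 1141 CPM in libraries labelled knockout, with a median log2 fold change of 0.08. Rplp0, its base, read 315.9 to 390.3 CPM in controls and 421.7, 435.4, 451.2, 268.0 and 260.0 CPM in replicates 1 to 5 labelled knockout. Rpl5 and Rpl11, which carry the small 5S RNA and can bind Mdm2, had log2 fold changes of 0.19 ± 0.19 and 0.28 ± 0.15 (SE). Among 8 proteins around the exit tunnel the median was 0.07. Among 18 genes whose human counterparts are linked to Diamond-Blackfan anaemia, a failure of red cell production, it was 0.17. At an unadjusted p under 0.05, 2 of the 8 message path genes and 2 of these 18 were higher, against 20.3% of all genes tested, and 0 of the P stalk, Rpl5 and Rpl11 and exit tunnel genes. DESeq2 called Rps26 and Rpsa in the first list and Rpl18 and Rps26 in the second, against 34.5% of all genes tested.

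The X-linked members Rpl10, Rpl36a, Rpl39 and Rps4x had 0 calls among 4 in edgeR, also at an unadjusted p under 0.05, and 0 in DESeq2. Over all genes tested, edgeR called 29.3% and DESeq2 34.5%, and at an unadjusted edgeR p under 0.05 20.3% were higher and 20.4% lower. Rpl10, which joins the large subunit late in assembly, read 241.1 to 254.6 CPM in controls and 303.2, 320.0, 305.3, 245.4 and 230.2 CPM in libraries labelled knockout. Rpl36a was at 65.4 to 69.7 and at 60.7 to 99.3 CPM, and its estimate was 0.30 ± 0.15 on the log2 scale (SE; edgeR adjusted p 0.150). Rpl39 was at 29.9 to 33.8 and at 26.3 to 44.2 CPM. Rps4x was at 308.4 to 346.9 and at 287.7 to 409.4 CPM.

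Per kilobase of the principal transcript, the highest control levels were of Rps15 (539.5 CPM per kilobase), Rplp1 (520.5) and Rps27 (440.4). Per kilobase of all annotated exons they read 428.1, 520.5 and 145.7, with Rpl4 at 315.2, so the order depends on the length used. Rps15, of the small subunit head, had a log2 fold change of 0.09 ± 0.12 (SE), and Rps27 one of -0.02 ± 0.13 (SE), neither called.

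Rpl10l, Rpl3l, Rpl39l, Rpl32l and Rpl6l were scarce or absent, while Rps27l and Rps4l had enough counts to be tested. Rpl10l, known from testis, had 0 counts in all 9 libraries, which allows up to 3. Rpl3l, known from heart and skeletal muscle, had 0 counts in controls and 1 in the libraries labelled knockout. Rpl39l, also of testis, had 15 and 12 counts over the groups, and the pseudogenes Rpl32l and Rpl6l had 29 and 58 and 38 and 46. Rps27l, a paralog of Rps27 that p53 induces, was at 14.3 to 19.4 CPM in controls and at 11.7 to 18.3 CPM in libraries labelled knockout, not called. Rps4l, a pseudogene close in sequence to Rps4x, was at 7.46 to 17.2 and at 7.14 to 25.1 CPM, not called, and its reads cannot be told from those of its relatives with the counting rule unknown.

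Rpl24 and Rpl13a, components of the large subunit in every cell, had few counts in this table. Rpl24 was at 0.576 ± 0.0931 CPM in controls (SD, n = 4) and Rpl13a at 8.82 ± 0.840 CPM. The exons of Rpl24 overlap those of Gm28037 on the same strand, which had 0 counts. Members of this family have many processed copies in the genome, and the sources used here do not say how reads with several matches were treated. The 291 rows of named -ps pseudogenes held between 0.00399% and 0.00651% of the library counts. Of the 83 members, 37 share exon sequence with another annotated gene, and 14 overlap a tested gene on the opposite strand, Rps28 and Rpl18 among them. Rps28 had 5374 counts in controls and 7390 in libraries labelled knockout, against 55442 and 14902 for its partner Kank3. Rpl18 had 16502 and 26021, against 4820 and 7849 for its partner Sphk2. The sources used here do not say whether counting used strand, so reads of such pairs may be mixed.

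Among genes of the rest of the translation apparatus, the share called in a list ran from 0 of the 8 ribosome constituents that the rule does not take to 53.8% of the regulators of TOP messages and of ribosome supply, against 29.3% of all genes tested, and no test compared the lists. Over all genes tested, 14.5% rose and 14.8% fell. Of 8 elongation factors tested, 2 rose and 0 fell, and 0 were lower at an unadjusted p under 0.05. Eef2, which moves the ribosome along the message, read 1905, 1862, 1971 and 1760 CPM in controls and 2878, 3147, 2890, 2171 and 2520 CPM in libraries labelled knockout. The groups did not overlap, and the log2 fold change was 0.54 ± 0.13 (SE; edgeR adjusted p 0.0144). Eef1g rose with an edgeR adjusted p of 0.0491, a call lost without any one of controls 1 to 4 or knockout-labelled replicates 1 to 3 (edgeR adjusted p 0.0731 to 0.128). It was also lost with upper quartile scaling (0.0538), TMM computed without the members (0.0507), a sex term (0.0635) and limma-voom (0.0584), as adjusted p in edgeR and limma. Eef1a1, which delivers transfer RNA, read 2432 to 2790 and 2712 to 4214 CPM and was not called (edgeR adjusted p 0.0845).

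Of 36 initiation factors, 10 rose and 0 fell (27.8% called), and 2 were lower at an unadjusted p under 0.05. Their estimates were positive for 28 and negative for 8, with a median of 0.14 on the log2 scale, against 0.15 for the ribosomal protein genes. Relative to the summed ribosomal protein counts, 1 initiation factor and 0 elongation factors were called. Pabpc1, the poly(A)-binding protein and itself a TOP message, read 407.3 to 420.3 CPM in controls and 761.5, 954.5, 994.9, 483.5 and 666.8 CPM in libraries labelled knockout, all above the controls (log2 fold change 0.90 ± 0.20 SE, edgeR adjusted p 0.00724). Eif4h, a helper of the helicase Eif4a, read 266.0 to 298.4 and 347.2 to 419.2 CPM (log2 fold change 0.45 ± 0.08 SE, edgeR adjusted p 0.00315). Of 10 further TOP messages, Vim and Cct2 rose and Ybx1 fell. Ybx1, an RNA-binding protein, read 371.6 to 428.3 CPM in controls and 268.4 to 318.3 CPM in libraries labelled knockout (log2 fold change -0.40 ± 0.09 SE, edgeR adjusted p 0.00742). Vim and Cct2 had edgeR adjusted p of 0.0371 and 0.0487, and leaving out any one of controls 1 to 4 or knockout-labelled replicates 1 to 3 ended both calls. The call for Cct2 was also lost with upper quartile scaling (edgeR adjusted p 0.0520), TMM computed without the members (0.0506), no count filter (0.0707) and limma-voom (0.0568). Of 8 ribosome constituents whose symbols the rule does not take, 0 were called by edgeR, also at an unadjusted p under 0.05. Rack1, a scaffold on the small subunit, read 327.1 to 361.3 and 300.6 to 519.4 CPM.

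Summed levels were compared by library. Relative to the control mean, elongation factors, of which Eef1a1 and Eef2 made up 88.8% of the summed control level, were at 0.55, 0.67, 0.61, 0.14 and 0.18 on the log2 scale in knockout-labelled replicates 1 to 5, and initiation factors at 0.27, 0.38, 0.33, 0.05 and 0.15. The ribosomal protein genes were at 0.25, 0.35, 0.44, -0.14 and -0.23. Ribosome constituents outside the rule (0.33, 0.34, 0.46, -0.06 and -0.19) and the further TOP messages (0.29, 0.41, 0.36, -0.09 and -0.16) had the same signs, library by library. Ribosome assembly factors were at -0.01, 0.01, 0.01, -0.07 and -0.06.

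**Figure D5:**
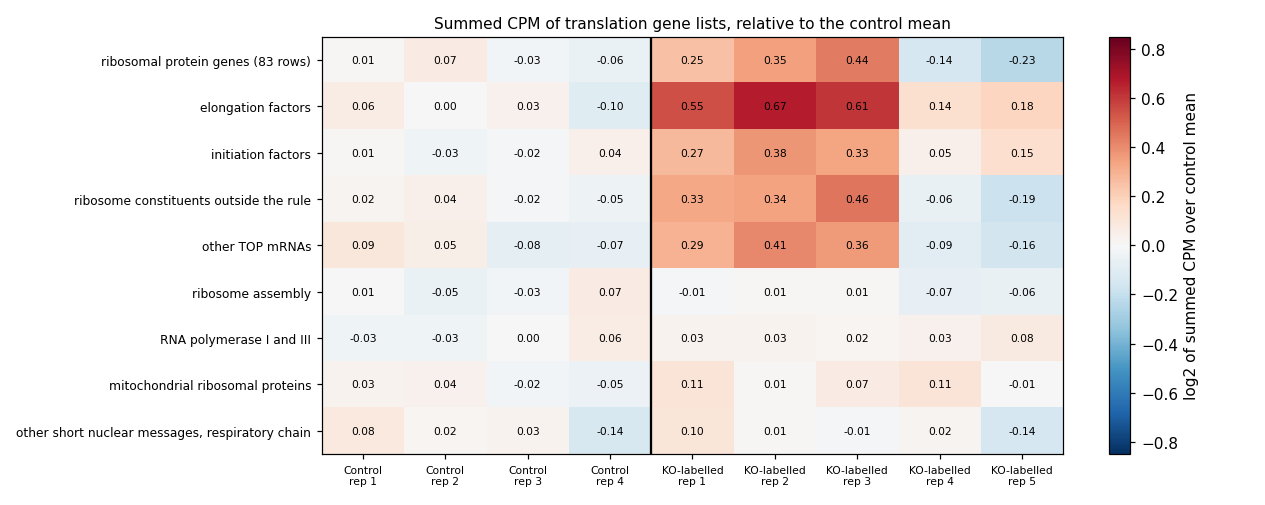
Summed CPM of translation gene lists in each library as log2 over the control mean (colour and printed value); columns are libraries and rows are lists. Ribosomal protein genes run from -0.23 to 0.44 in the libraries labelled knockout, elongation factors from 0.14 to 0.67 and ribosome assembly factors from -0.07 to 0.01.

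Of 57 ribosome assembly factors, 4 rose and 9 fell. Sdad1, a factor of large subunit assembly, fell from 33.6 ± 4.34 (SD, n = 4) to 21.6 ± 3.16 CPM (SD, n = 5; edgeR adjusted p 0.00521). Of 35 RNA polymerase I and III genes, 3 rose and 4 fell. Polr1a, the largest polymerase I subunit, read 26.6 to 32.3 CPM in controls and 44.7 to 62.2 CPM in libraries labelled knockout (edgeR adjusted p 0.000296). Of 77 mitochondrial ribosomal protein genes, 8 rose and 3 fell, Mrpl52 among those that rose (22.5 ± 1.90 to 37.1 ± 1.71 CPM, edgeR adjusted p 0.000194). Of 22 cytosolic transfer RNA synthetase genes, 3 rose and 4 fell, and Qars rose (edgeR adjusted p 0.00137). Of 70 nuclear genes of the respiratory chain, also short messages, 6 rose and 10 fell.

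Among 26 tested regulators of TOP messages and of ribosome supply, 6 rose and 8 fell. Sesn2, an inhibitor of mTOR complex signalling that senses leucine, read 30.6 to 48.2 CPM in controls and 101.9, 150.8, 137.7, 88.4 and 119.6 CPM in libraries labelled knockout (log2 fold change 1.57 ± 0.18 SE, edgeR adjusted p 0.000287). Ddit4, another inhibitor of mTOR, read 23.6 to 30.6 and 129.2, 380.7, 153.2, 198.2 and 97.8 CPM (log2 fold change 2.74 ± 0.38 SE, edgeR adjusted p 0.000803). Mxi1, an antagonist of Myc, rose from 31.8 ± 3.33 (SD, n = 4) to 77.6 ± 33.2 CPM (SD, n = 5; edgeR adjusted p 0.00777). Rps6ka1, a kinase that phosphorylates Rps6, fell from between 32.3 and 38.2 to between 12.3 and 18.6 CPM (log2 fold change -1.25 ± 0.13 SE, edgeR adjusted p 0.000133). All 5 libraries labelled knockout lay on the same side of the controls for these 4 genes.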

How the data were processed

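Raw counts for Ensembl genes in 9 samples were deposited by the authors in 1 table. The submitters' processing notes name the tools STAR 2.7.6a and FastQC 0.11.5 and the build GRCm38. They name no counting program, strand setting or rule for reads with several matches. Per the labels' protocols a stranded or an unstranded TruSeq kit was used, not assigned to libraries. Groups came from the sample titles. Nothing says that every sample was a separate animal, so the p-values cover the spread among these samples only, which may be technical. Pairs of libraries within a group, the only pairs compared, had a chi-square of 20.3 to 182 per degree of freedom, so none of them was counted as 1 sample.

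Symbols, coordinates and lengths came from the GENCODE M21 annotation of GRCm38, and 52489 of 52636 identifiers had a symbol. Genes passing filterByExpr (minimum count 10, minimum total 15) numbered 14583. They were tested in R 4.3.3 with edgeR 4.0.16 (TMM, robust glmQLFit, glmQLFTest, no covariate) over all 9 libraries, with Benjamini-Hochberg adjustment and a threshold of 0.05. Each SE is the absolute log2 fold change divided by the root of its F statistic. The second fit used the summed member counts as library size without TMM. CPM were computed from the deposited counts on TMM library sizes. Alternatives were DESeq2 1.42.0, limma-voom (limma 3.58.1), 4 other scalings, 2 other count filters, a replicate block, a sex term and leaving out libraries.

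On simulated counts for knockout-labelled over control (14356 genes), the first fit found 86 of 100 true 2-fold changes and 98 of 100 true 4-fold changes. It called 9 of 14156 unchanged genes. The second fit, with the changed members left out of the sum, found 89 and 98 of 100 and called 11 of 14156. Genes were drawn independently and none was changed by less than 2-fold. Changes as small as that of Rpl10a (1.43-fold), and members moving together by library, were therefore not covered. Intervals and floors cover counting error only, since these reads carry no molecular identifiers and are not independent molecules.

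The members and the 28 gene lists were chosen with earlier results of these data known. Named by rule were members past the threshold in either fit, the listed paralogs, the X-linked members and the 3 members highest per kilobase. Up to 4 genes of each list with the smallest p were also named by rule. The other members, Eef1a1 and Rack1 were named after their values were seen. The values of 1 member are not reported here by name.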

Additional observations from a re-analysis of the deposited data

Results flagged for a closer look

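Among 52 groups of values checked (the named members, the summed share and the pseudogene share, by group), 4 held 1 library that stood apart from the rest of its group, where chance alone gives about 1 in 20. Rps4l read 25.1 CPM in knockout-labelled replicate 1, against 7.14 to 11.0 CPM in the other libraries labelled knockout. Rps24 read 212.8 CPM in knockout-labelled replicate 3, against 134.3 to 150.0 CPM in the others. Rpl5 read 86.1 CPM in control 1, against 93.5 to 93.8 CPM in the other controls. Rpl18 read 116.7 CPM in control 4, against 132.5 to 133.3 CPM in the other controls.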

How the results depend on the processing

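The count of members called (1) was 6 with library totals alone, 5 with DESeq2, 4 with a replicate block, 2 with a sex term and 5 without knockout-labelled replicates 2 and 3 together. Leaving out 1 library gave 0 to 11: 0 without control 1, 2 or 3 or knockout-labelled replicate 1 or 2, 3 without replicate 3, 6 without replicate 4 and 11 without replicate 5. Over all genes tested, 4426, 5029, 2671 and 3840 were called with library totals alone, DESeq2, the block and the sex term. Leaving out 1 library gave 3086 to 3999 calls among 14352 to 14872 genes tested. The median log2 fold change of the members kept its sign in 19 of 20 alternatives and turned to -0.0125 without replicates 2 and 3 together. The count called relative to the summed members (1) was 2 without replicates 2 and 3 together and 0 to 1 on leaving out 1 library. The direction turned for Rps27 (0.0433 with library totals, 0.0536 with the replicate block, 0.0163 with a sex term and -0.0870 to 0.0649 on leaving out 1 library, positive without knockout-labelled replicate 4 or 5) and for Rps4l (-0.264 to 0.417 on leaving out 1 library, negative without control 3 or knockout-labelled replicate 1). Without replicates 2 and 3 together, the libraries with the highest member shares, the direction turned for Rpl39 (-0.126), Rps15 (-0.0218), Rplp0 (-0.115) and Rpl5 (-0.0764). The cause was not tested. Library totals alone moved the median of all genes from 0.01 to 0.08, with 2618 genes higher and 1808 lower against 2110 and 2161.

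Replicate numbers are shared by the groups, and those with number 1 deviated together (correlation 0.32 over all genes, 0.66 over the members). Numbers 2 to 4 did not (-0.05, -0.01 and -0.36 over all genes, -0.36, -0.03 and -0.24 over the members), and 1 of 4 controls correlated best with its own number, so the numbers were not taken as pairs. With the block, 2671 genes were called in place of 4271, and the calls of Rpl10a (edgeR adjusted p 0.0662), Eef2 (0.0637), Ybx1 (0.0576), Sdad1 (0.0592) and Cct2 (0.0813) were lost. Over the alternatives Rpl10a ranged in edgeR, DESeq2 or limma adjusted p from 0.00786 to 0.0780. At these depths Rpl24, with 74 counts over the controls, was the tested member with the fewest.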
